A study of Mus musculus with 6 samples.

Results

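Complement components and receptors were examined in peripheral T-cell lymphomas (PTCL) of mice, as the 9 genes C1qa, C1qb, C1qc, C3, C4b, Cfb, Cfp, C3ar1 and C5ar1. These genes were picked by symbol with earlier results of these data known, and all 9 of 9 were found among 34245 rows of the gene table. The lymphomas arose in mice of the strain FVB that carried a single functional copy of the DNA methyltransferase gene Dnmt3b (Dnmt3b+/-, from a conventional knockout allele present in every cell). RNA-seq covered 3 independent tumors from lymph nodes of terminally sick animals, so each replicate is another tumor, and each value below is a level in bulk tissue. No normal or control tissue was measured by RNA-seq in the files used here, and 3 whole-genome bisulfite samples of the series were not analysed here. Levels are given as FPKM, the reads of a gene per kilobase of its exons and per 1000000 reads. The depth behind the values was inferred from the FPKM and exon lengths. It was 30726570 reads for tumor 1, with 18969988 and 20770928 reads for tumors 2 and 3.

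The labelled tissue was checked with T cell markers. Cd3e, a chain of the T cell receptor complex, had 56.4, 78.1 and 65.3 FPKM in tumors 1, 2 and 3. Cd8a had 259, 122 and 218 FPKM in the same order, and Cd8b1 had 435, 166 and 443 FPKM. Cd4 was lower, at 28.4, 4.28 and 8.22 FPKM. All 10 T cell markers had a mean of at least 1 FPKM, as had 11190 of all 34197 gene symbols. The summed level of the T cell markers was 1341, 917 and 1314 FPKM. The T cell label thus matched its markers in each tumor, with both Cd8 chains above Cd4 per length.

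Complement is a cascade of plasma and tissue proteins that tags microbes, immune complexes and dying cells for removal. C1q starts the classical pathway, properdin and factor B drive the alternative pathway, and both lead to cleavage of C3, whose fragments coat targets and call in leukocytes through receptors. The liver makes most circulating complement, while macrophages are a main source of C1q, and macrophages and stromal cells of lymphoid tissue also make several other components.

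Promoters are shown because 9 of 9 members were lowest in tumor 3, although their ratios between tumors 1 and 2 ranged from 0.454 to 7.83. RefSeq promoters of build GRCm38.p6 were matched for 6 of 9 members, namely C1qb, C1qc, C3, Cfp, C3ar1 and C5ar1. C1qa, C4b and Cfb were not matched. Each window of 250 bases before to 50 bases after the annotated start was searched on both strands for 4 short motifs. The 250 bases before the start are printed 5′ to 3′ on the gene's strand for C1qb and for C3, with motif matches in capitals, as their windows end at or outside the gene in the table. The Cfp window, which also lay outside its gene, is not printed, and its matches lay after the start. The regions are chr4:136886201-136886450 for C1qb and chr17:57228137-57228386 for C3, both on the minus strand.
C1qb: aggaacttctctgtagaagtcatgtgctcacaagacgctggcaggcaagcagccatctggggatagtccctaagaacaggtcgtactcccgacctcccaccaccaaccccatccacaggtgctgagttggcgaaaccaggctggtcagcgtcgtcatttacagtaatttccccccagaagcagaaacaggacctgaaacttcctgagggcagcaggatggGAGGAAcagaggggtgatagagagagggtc
C3: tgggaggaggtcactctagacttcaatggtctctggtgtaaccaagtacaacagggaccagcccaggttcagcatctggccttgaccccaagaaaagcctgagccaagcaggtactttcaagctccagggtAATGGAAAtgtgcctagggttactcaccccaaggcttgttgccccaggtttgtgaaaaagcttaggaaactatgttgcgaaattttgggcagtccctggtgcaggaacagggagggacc

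The RefSeq start is not always that of the gene in the table: of the 250 bases before it, 151 lay inside C1qc, 202 inside C5ar1 and 4 inside C3ar1. Matches are placed from the RefSeq start, and those within these stretches lie inside the gene of the table, as the C1qc match 108 bases before the start does. Most of the C5ar1 window was thus not upstream of that gene. The motif GAGGAA, the core that PU.1 and related ETS factors recognise, was found in C1qb 30 bases before the start. In C1qc it lay on the opposite strand, 193 bases before the start. Cfp held it after the start, on the opposite strand at bases 7 and 23. Thus 3 of 6 matched members held GAGGAA, against 28.3% of all 32851 promoters of the same length. AANNGAAA, a core of sites for interferon regulatory factors, was found in C1qc (108 bases before the start), C3 (119 bases) and C3ar1 (209 bases), and in 23.9% of all promoters. TATAAA lay 235 bases before the start of C3ar1 and 15 bases after the annotated start of C3, and 13.6% of all promoters held it. TTCNNNGAA, the pattern bound by STAT factors, was in 0 of the 6 windows and in 8.30% of all promoters. None of the matches overlapped, the C5ar1 window held none of the 4 motifs, and no motif was shared by all matched members.

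C1qa, C1qb and C1qc encode the A, B and C chains of C1q, the recognition molecule of the classical pathway. The 3 genes lie side by side on the minus strand of chromosome 4 of build mm10, within 18.7 kb. C1qb (ENSMUSG00000036905) is at chr4:136880129-136886187, C1qc (ENSMUSG00000036896) at chr4:136889804-136893065 and C1qa (ENSMUSG00000036887) at chr4:136895917-136898803. No other gene of the table overlapped them.

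C1qa had 74.5 FPKM in tumor 1, 24.1 FPKM in tumor 2 and 1.44 FPKM in tumor 3. C1qb had 64.4, 20.6 and 1.59 FPKM in tumors 1, 2 and 3. C1qc had 32.4, 12.7 and 0.748 FPKM in the same order. Each chain was highest in tumor 1 and lowest in tumor 3. The reads behind the C1qa values were 2380, 475 and 31, which gave an exact 95% Poisson interval of 0.975 to 2.04 FPKM in tumor 3. Counting error is all that the intervals and the 3-read limits cover, since reads are not independent molecules. In tumor 1 the C1qa level was 51.9 times that in tumor 3 (95% interval 36.5 to 76.6) and 3.09 times that in tumor 2 (2.80 to 3.42). The ratio of tumor 1 to tumor 3 was 40.4 for C1qb and 43.3 for C1qc, with intervals of 29.1 to 57.9 and 30.2 to 64.3. These 3 intervals overlapped, so the chains could not be told apart by how far tumor 3 lay below tumor 1. In bulk tissue, fewer cells of a type and less RNA per cell cannot be told apart.

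The chains kept similar proportions while their summed level went from 171 FPKM in tumor 1 to 57.4 in tumor 2 and 3.78 in tumor 3. C1qa made up 43.5%, 41.9% and 38.0% of the summed FPKM in tumors 1, 2 and 3, a mean share of 41.1% ± 2.83 (SD, n = 3). C1qb made up 38.6% ± 3.23 and C1qc 20.3% ± 1.66. The share of C1qc depended on the length used. Its merged exons span 1931 bases and its longest coding transcript 1203 bases, while both lengths are 1040 bases for C1qa and 1088 bases for C1qb. Counted as reads, the mean shares were 34.5% for C1qa, 33.9% for C1qb and 31.6% for C1qc. With the coding transcript length, an alternative chosen after seeing the data, they were 36.7%, 34.4% and 29.0%. By reads, C1qc made up 29.8% in tumor 1 (exact 95% binomial interval 28.6% to 30.9%) and 34.0% in tumor 2 (31.5% to 36.6%), a difference beyond counting error.

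**Figure D1:**
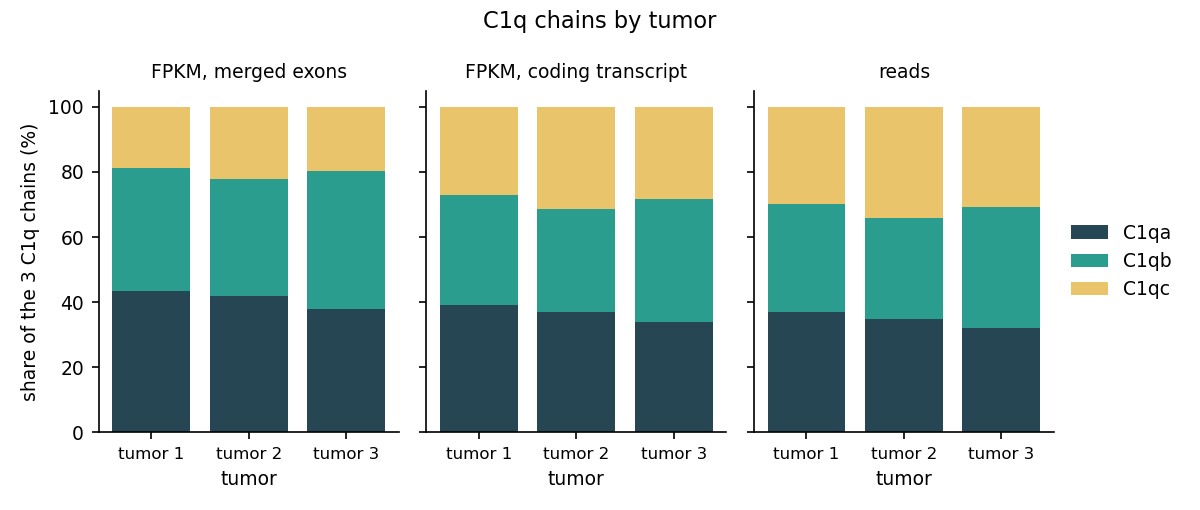
Share of each C1q chain (percent, stacked bars) in the 3 tumors by FPKM over merged exons, by FPKM over the coding transcript, and by reads. The mean share of C1qc was 20.3% by FPKM over merged exons and 31.6% by reads.

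C3 (ENSMUSG00000024164, chr17:57203970-57228136) encodes the central component, where all complement pathways meet. Its level was 47.4 FPKM in tumor 1, 26.2 FPKM in tumor 2 and 1.02 FPKM in tumor 3, from 7484, 2560 and 109 reads. Tumor 1 was again highest and tumor 3 lowest. The C3 level in tumor 1 was 46.4 times that in tumor 3 (38.4 to 56.6), close to the C1q chains, but only 1.80 times that in tumor 2 (1.73 to 1.89). C3 was the highest of the 9 members per length in tumor 2. In tumor 1 it was the fourth, or the fifth by coding transcript length, where C1qc was at 51.9 FPKM.

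C4b (ENSMUSG00000073418, chr17:34728380-34743882) encodes complement C4, which the C1 proteases cleave to build the classical C3 convertase. Tumors 1, 2 and 3 had 7.83, 7.41 and 0.0930 FPKM of it, resting on 1370, 800 and 11 reads. Tumors 1 and 2 could not be told apart by C4b beyond counting error, with a ratio of 1.06 (0.968 to 1.16). Tumor 1 was 84.2 times tumor 3 (46.9 to 169). C4b has a close copy, C4a, 65.2 kb away. Of the 150-base windows of the longest C4b coding transcript, 8.26% also occurred in C4a, so the split of reads between the copies is uncertain. C4a itself had 0.320, 0.255 and 0.124 FPKM.

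Cfb (ENSMUSG00000090231, chr17:34856374-34862518) encodes factor B, the protease subunit of the alternative pathway convertase. Its level was 61.0 FPKM in tumor 1, 7.80 FPKM in tumor 2 and 0.767 FPKM in tumor 3, from 5299, 418 and 45 reads. Cfb had the largest ratio of tumor 1 to tumor 2 among the members, at 7.83 (7.08 to 8.67). Its ratio of tumor 1 to tumor 3 was 79.6 (59.4 to 109). The value is uncertain because Gm20547 overlaps Cfb on the same strand, and 80.7% of the 150-base windows of the longest Cfb coding transcript also occurred in Gm20547. That gene had 42.8, 6.42 and 0.543 FPKM.

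Cfp (ENSMUSG00000001128, chrX:20925454-20931555) encodes properdin, which stabilises the alternative pathway convertase. Properdin RNA stood at 19.8, 14.3 and 4.35 FPKM, with 1057, 472 and 157 reads behind the values of tumors 1, 2 and 3. Cfp differed least between tumors 1 and 3, with a ratio of 4.55 (3.85 to 5.42). It ranked sixth of the members per length in tumor 1 and was the highest in tumor 3.

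The anaphylatoxin receptors had the lowest levels of the members in tumors 1 and 2, while C4b was below C5ar1 in tumor 3. C5ar1 (ENSMUSG00000049130, chr7:16246743-16259540), the receptor for C5a on myeloid cells, was measured at 2.72, 0.985 and 0.412 FPKM, or 215, 48 and 22 reads, in the tumors in order. Its ratio of tumor 1 to tumor 3 was 6.61 (4.25 to 10.8). C3ar1 (ENSMUSG00000040552, chr6:122847138-122856161), the receptor for C3a, had 0.272 FPKM in tumor 1 and 0.600 FPKM in tumor 2, from 36 and 49 reads. No C3ar1 read was found in tumor 3, which allows up to 0.0335 FPKM (3 reads). C3ar1 was the member with its highest level in tumor 2, at 0.454 times this level in tumor 1 (0.287 to 0.712). Against the limit in tumor 3 it was at least 8.11 times higher in tumor 1 and at least 17.9 times higher in tumor 2.

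**Figure D2:**
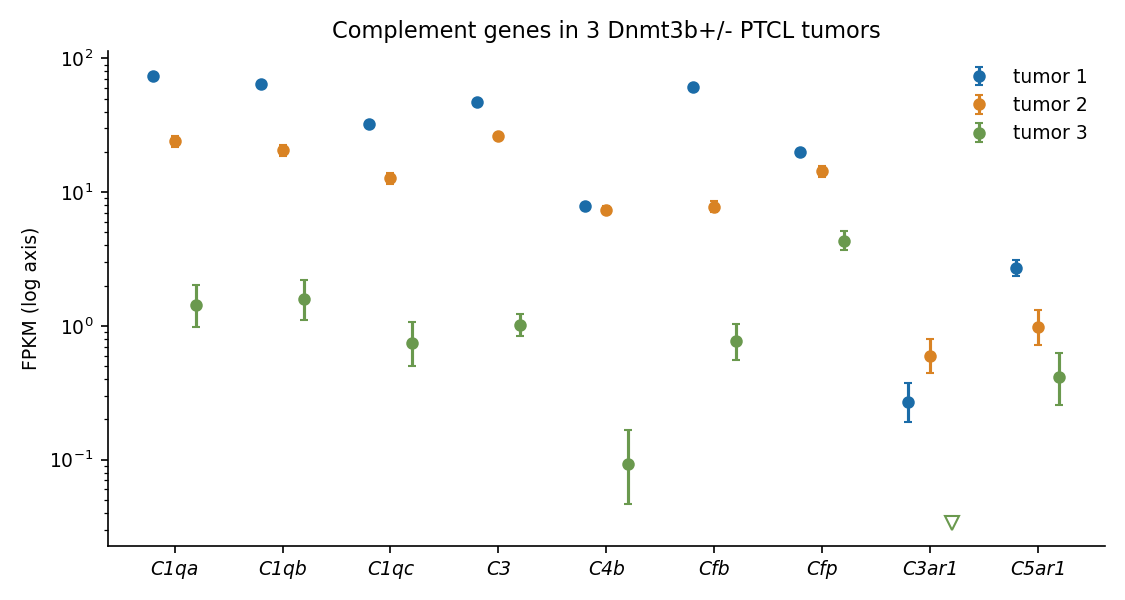
FPKM (log axis) of the 9 complement genes in tumors 1, 2 and 3, with exact 95% Poisson intervals for counting error. The open triangle marks the limit of 0.0335 FPKM that no C3ar1 read allows, and every gene was lowest in tumor 3.

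By mean level per length the order was C1qa, C1qb, C3, Cfb, C1qc, Cfp, C4b, C5ar1 and C3ar1. The means were 33.3 ± 37.4 FPKM (SD, n = 3) for C1qa, 28.9 ± 32.2 for C1qb, 24.9 ± 23.2 for C3, 23.2 ± 33.0 for Cfb and 15.3 ± 16.0 for C1qc. They were 12.8 ± 7.84 FPKM for Cfp, 5.11 ± 4.35 for C4b, 1.37 ± 1.20 for C5ar1 and 0.294 ± 0.296 for C3ar1, where the table's placeholder stands for the tumor without a read. Of the 8 pairs of neighbours in this order, only Cfp over C4b and C5ar1 over C3ar1 kept their order in 3 of 3 tumors. In no pair did the means differ by more than the SD of the higher gene, and Cfp over C4b came closest, 7.73 FPKM apart with an SD of 7.84. By coding transcript length, C1qc had a mean of 24.5 FPKM, above Cfb at 23.8 and next to C3 at 24.9. The order also rested on tumor 1: without it, C3 had the highest mean, 13.6 FPKM, above C1qa at 12.8 FPKM, and Cfb was at 4.28 FPKM.

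Counted over the members, 9 of 9 were lowest in tumor 3, as were 37.4% of the 11190 genes with a mean of at least 1 FPKM. The order tumor 1, tumor 2, tumor 3 from high to low was seen in 8 of 9, all but C3ar1, and in 20.5% of all genes. A level at least 2 times higher in tumor 1 than in tumor 3 was found for 9 of 9 members, against 13.3% of all genes. The same held for tumor 2 over tumor 3 in 9 of 9 members, against 11.3%. Tumor 1 was at least 2 times tumor 2 in 5 of 9 members (C1qa, C1qb, C1qc, Cfb and C5ar1), against 15.1%. In the opposite directions, C3ar1 alone was at least 2 times higher in tumor 2 than in tumor 1 (10.1% of all genes), a call that ended at a ratio of 3 or with a pseudocount of 0.1 or 1. None was 2 times higher in tumor 3 than in tumor 1 (4.45%) or tumor 2 (5.11%). Of the 9 members, 8 passed the filter of a mean of at least 1 FPKM, and C3ar1 did not. Of all 34197 gene symbols, 11190 passed it. The median ratio of tumor 1 to tumor 3 was 43.3 over the 9 members and 1.18 over all genes, and that of tumor 2 to tumor 3 was 16.8 and 1.04. The median ratio of tumor 1 to tumor 2 was 2.55 over the members and 1.13 over all genes. Only 0.760% of all genes had a larger ratio of tumor 1 to tumor 3 than C1qa, 0.831% than C3 and 4.31% than Cfp.

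**Figure D3:**
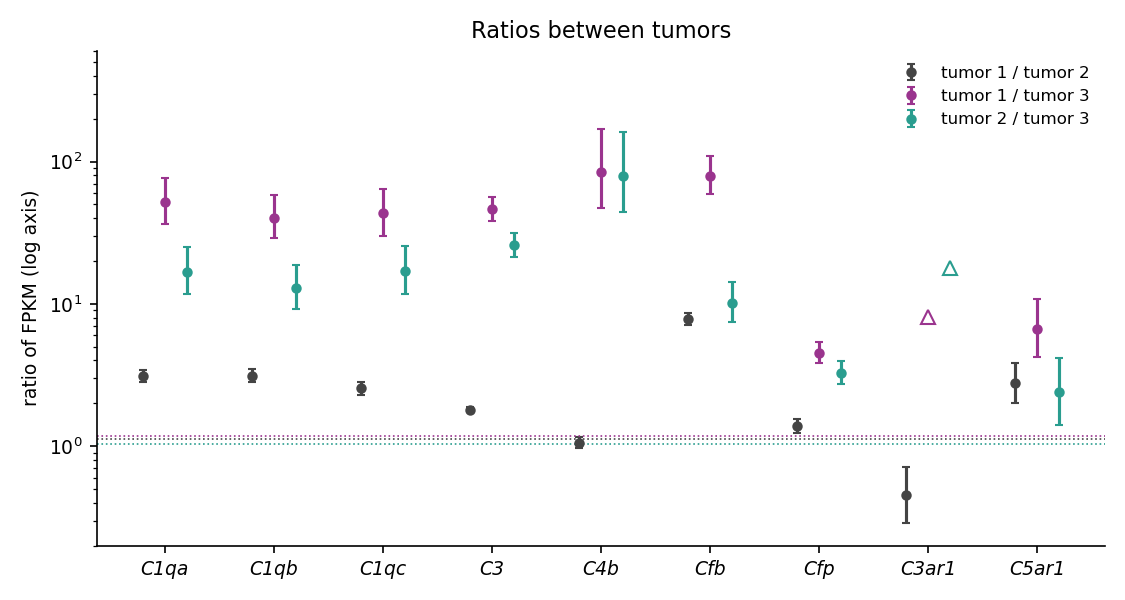
Ratio of FPKM between pairs of tumors (log axis) for the 9 genes, with exact 95% intervals for counting error. Open triangles are lower bounds, dotted lines are the medians over 11190 genes, and the ratios of tumor 1 to tumor 3 run from 4.55 for Cfp to 84.2 for C4b.

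Among 44 other complement genes, 18 had a mean of at least 1 FPKM and 11 had no read in any tumor. Of all 34197 gene symbols, 11190 had such a mean. Genes without a read numbered 14429, 15662 and 16482 in tumors 1, 2 and 3, and those without a read in every tumor were not counted. Of the 18, 11 were at least 2 times higher in tumor 1 than in tumor 3 and 0 the other way round, against 13.3% and 4.45% of all genes, and 8 were at least 2 times higher in tumor 2 than in tumor 3, against 11.3%. In the opposite direction, Cr2, Cd55 and C6 (3 of 18) were at least 2 times higher in tumor 3 than in tumor 2, against 5.11%. For C6 the ratio of tumor 2 to tumor 3 was 0.253 (0.0535 to 1.13). Its recovered reads did not come out whole, so this interval is uncertain. Lowest in tumor 3 were 10 of 18, against 37.4% of all genes. The C1 proteases stood below C1q per length. C1s1 had 6.90, 4.68 and 0.108 FPKM and C1ra had 3.92, 2.85 and 0.226 FPKM in tumors 1, 2 and 3. C2, the next protease of the classical pathway, had 2.14, 2.30 and 0.162 FPKM, which is uncertain because Gm20547 overlaps it on the same strand and Zbtb12 on the other. All 3 were lowest in tumor 3, as the C1q chains were. C1s1, Fcna, Masp2, C8g and Cd55 each overlap a gene on the opposite strand (Gm16567, Fcnaos, Tardbp, Fbxw5 and Gm16083), and whether reads were counted by strand is not given in the sources used here, so their levels are uncertain.

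The lectin pathway was represented by Fcna, a ficolin of macrophages, at 5.28, 3.87 and 0.175 FPKM, and by the protease Masp2 at 5.41, 5.61 and 3.09 FPKM. Mbl1, Mbl2, Fcnb and Colec10 had no read. Factor D, encoded by Cfd and known as a product of adipocytes, stood apart with 0.882 FPKM in tumor 1, 14.5 FPKM in tumor 2 and no read in tumor 3. Adipocyte markers were also highest in tumor 2, with summed levels of 0.767, 5.78 and 0.0643 FPKM, and their part in the Cfd level was not tested. Of the terminal components, C6 had 4.34, 0.0392 and 0.155 FPKM and C8g had 1.07, 1.69 and 1.39 FPKM, while C8a, C8b and C9 had no read.

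The regulators Serping1 (C1 inhibitor) and Clu (clusterin) were lowest in tumor 3, as the members were. Serping1 had 13.2, 13.4 and 0.0828 FPKM in tumors 1, 2 and 3, and Clu had 18.4, 12.0 and 1.5 FPKM. Among 6 membrane regulators, Cr1l and Cd55 had a mean of at least 1 FPKM and were not lowest in tumor 3. Cr1l, which encodes Crry, had 8.33, 4.91 and 8.71 FPKM, and Cd55 had 7.56, 0.663 and 6.73 FPKM. Below that mean, Cd59a had 0.341, 0.349 and 0.0798 FPKM, lowest in tumor 3, Cd46 had 0.796, 0.374 and 0.437 FPKM, and 2 had no read. Cr2, the complement receptor of B cells and follicular dendritic cells, had 3.33, 0.325 and 2.50 FPKM. Cr1l, Cd55 and Cr2 were lowest in tumor 2, as were C6, Itgam and C1qbp among the 18 genes. The share of all genes lowest in tumor 2 was not counted, so this is not read as a trait of complement genes. For Itgam the ratio of tumor 2 to tumor 3 was 0.846 (0.589 to 1.24), an interval that includes no difference. Its reads, like those of C6, did not come out whole, so the interval is uncertain. The B cell markers were lowest in tumor 2 too, with a summed level of 58.0, 14.1 and 107 FPKM, led by Cd79a. The part of B cells in these levels was not tested. Itgb2, the integrin chain shared by leukocyte complement receptors, was high throughout, at 118, 145 and 121 FPKM. The alpha chains that pair with it in those receptors were not level: Itgam had 2.58, 0.562 and 0.664 FPKM and Itgax had 3.18, 1.47 and 0.762 FPKM, both highest in tumor 1.

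**Figure D4:**
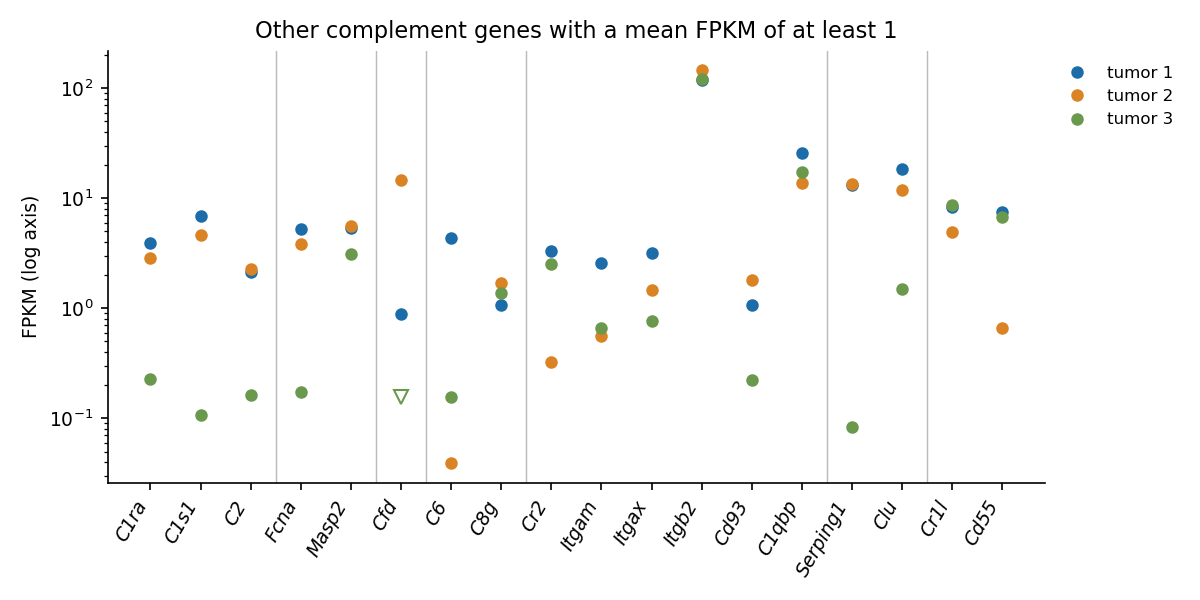
FPKM (log axis) in tumors 1, 2 and 3 of the 18 other complement genes with a mean of at least 1 FPKM, in the order of their roles, with vertical lines between roles. The open triangle marks the limit that no Cfd read in tumor 3 allows. Lowest in tumor 3 were 10 of the 18, against 37.4% of all genes.

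Markers of cells that make complement were read beside the members. All 12 macrophage markers were at least 2 times higher in tumor 1 than in tumor 3, and 11 of 12 had the order tumor 1, tumor 2, tumor 3, against 13.3% and 20.5% of all genes. Tumor 2 was at least 2 times tumor 3 in 7 of 12, against 11.3% of all genes, and Adgre1, Csf1r, Mrc1, Marco and Lyz2 were below that ratio. Their summed level was 389, 96.6 and 35.2 FPKM, led by Lyz2 at 215, 33.1 and 20.3 FPKM. Cd68 was the exception, at 19.6, 51.2 and 9.27 FPKM. The ratio of tumor 1 to tumor 3 ran from 2.12 to 69.4 over these markers, with a median of 11.9. Csf1r, the receptor that macrophages need to survive, had 20.7, 3.72 and 2.36 FPKM. No defining macrophage marker was without a read in any tumor, and Vsig4, a macrophage receptor for C3 fragments, had 2 reads in tumor 1 and none in the others.

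Divided by Csf1r, C1qa was 3.60, 6.47 and 0.609 in tumors 1, 2 and 3, and divided by Adgre1 (F4/80) it was 13.9, 25.6 and 2.48. Divided by Mertk, a receptor for dying cells on macrophages, it was 27.9, 34.1 and 21.5, and divided by Fcgr1 it was 29.2, 25.2 and 19.3. C1qa was lowest in tumor 3 by all 4 divisors, by less than 2 times with Mertk and Fcgr1, which had 6 and 4 reads there. C1qb was nearly level between tumors 1 and 3 divided by Mertk (24.1, 29.3 and 23.9). It was nearly level between tumors 2 and 3 divided by Fcgr1 (25.2, 21.6 and 21.4). C1qc was 12.1, 18.0 and 11.2 divided by Mertk and 12.7, 13.3 and 10.1 divided by Fcgr1. With so few reads, the place of tumor 3 for the C1q chains by Mertk and Fcgr1 is uncertain. Cfp went another way. Divided by Csf1r it was 0.957, 3.85 and 1.85, by Mertk 7.42, 20.3 and 65.4, and by Fcgr1 7.77, 15.0 and 58.5. C5ar1 was highest in tumor 3 divided by Mertk (1.02, 1.40 and 6.19) or Fcgr1 (1.07, 1.03 and 5.54), as Cfp was. Divided by Csf1r (0.132, 0.264 and 0.175) or Adgre1 (0.506, 1.04 and 0.712), C5ar1 was highest in tumor 2. Divided by Mertk (22.8, 11.1 and 11.5) or Fcgr1 (23.9, 8.15 and 10.3), Cfb was higher in tumor 1 than in tumor 2. Its order against tumor 3 by these divisors is uncertain, as they had 6 and 4 reads there. Divided by Csf1r (2.95, 2.10 and 0.326), Cfb was lowest in tumor 3. The part of macrophage number in the members' levels was not tested.

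Other lists were also lowest in tumor 3, as were 37.4% of all genes. Fibroblast and stroma markers were so in 8 of 8 genes, with summed levels of 12.6, 44.4 and 0.349 FPKM, led by Col1a1. Endothelial markers were so in 6 of 6 genes, at 17.7, 14.2 and 5.16 FPKM, led by Pecam1. Of the follicular dendritic cell markers 3 of 4 were in the table, at 17.4, 12.0 and 1.24 FPKM, led by Mfge8. Exocrine pancreas markers, foreign to lymph node, were lowest in tumor 3 in 8 of 8 genes, at 83.6, 430 and 0.583 FPKM, led by Ctrb1. Hepatocyte markers had no read in any tumor for 6 of 6 genes, Alb and Apoa1 included. The share of each of these cell types in the members' levels was not tested.

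**Figure D5:**
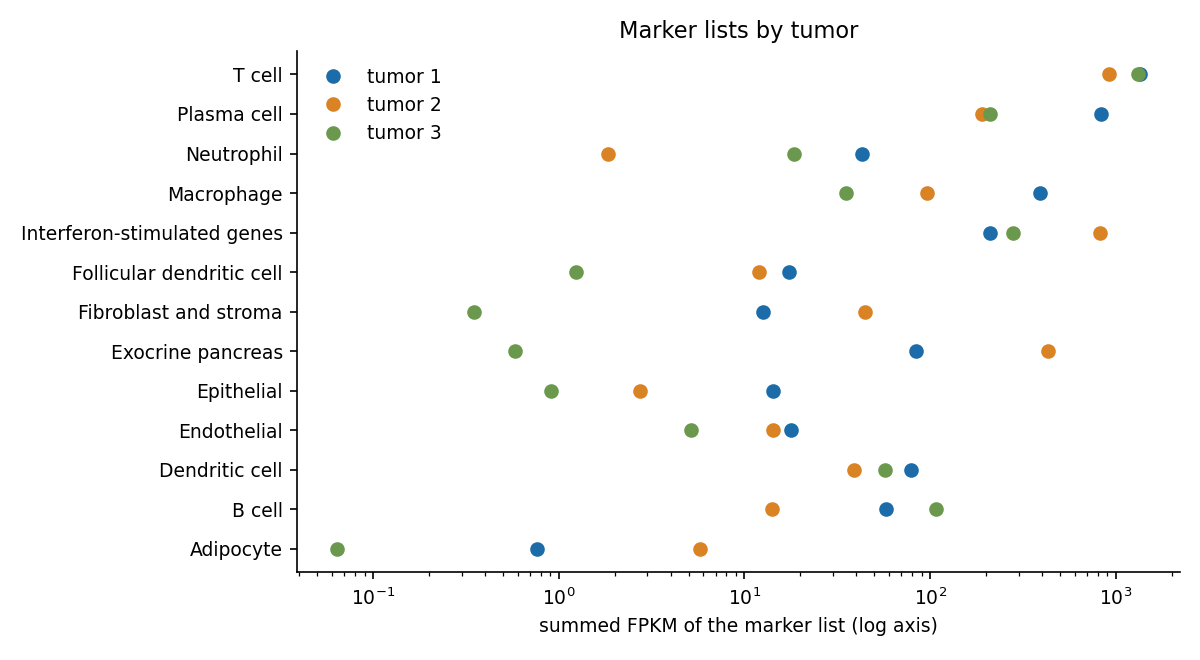
Summed FPKM (log axis) of each marker list in tumors 1, 2 and 3, without the hepatocyte list, which had no read. The macrophage list was highest in tumor 1 at 389 FPKM, while the stroma and pancreas lists were highest in tumor 2.

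The genes most like the C1q chains were sought among 6150 other genes with a mean of at least 5 FPKM, by the root mean square distance of log2(FPKM + 0.1) centred over the 3 tumors. The 5 nearest were Igfbp4 (0.21), Hba-a1 (0.30), Pla2g2d (0.31), Myo6 (0.32) and Ccl19 (0.46). The list depended on its settings: 3 of these 5 remained with a pseudocount of 1 and 1 with a mean of at least 1 FPKM. Ccl19 had no read in tumor 3, so its distance used the table's placeholder. Igfbp4 had 13.5, 3.41 and 0.240 FPKM in tumors 1, 2 and 3, and Myo6 had 44.5, 10.7 and 0.534 FPKM. C3 itself was 0.33 from the C1q chains, with 4 of the other genes nearer. Nearest to C3 were Gm16567 (0.30), Ccl19 (0.42), Myo6 (0.49), Igfbp4 (0.54) and Pla2g2d (0.57), and 4 genes stood in both lists. Gm16567 lies opposite C1s1, and their reads cannot be told apart without strand. Igfbp4 binds insulin-like growth factors, Myo6 is a myosin motor, and Ccl19 is a chemokine of lymph node stroma. Hba-a1 encodes an alpha globin of red blood cells and has a near-identical copy, so its level is uncertain. A likeness over 3 tumors is a description only.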

How the data were processed

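RNA-seq of 3 Dnmt3b+/- PTCL was used. The FPKM values were deposited by the authors, who aligned reads to mm10 with STAR and quantified them per gene with SeqMonk. The submitters' processing notes also name DESeq2 and MethylDackel 0.3.0.1, neither of which bears on these values. Of 6 samples, the 3 bisulfite samples were not analysed here.

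Members and gene lists were chosen with earlier results of these data known. Merged exons of the GENCODE M21 annotation were used to turn FPKM back into reads, and 92.1%, 92.1% and 92.2% of the values of tumors 1, 2 and 3 came out whole within 0.01 reads. The depth of each tumor was inferred from the most common value of FPKM times exon length. This value was taken as that of a gene without a read, which holds the value of 0.9 reads. For repeated symbols the row with the highest mean was kept. A single group with no controls allowed no test between groups. Genes named were the 9 members, other complement genes with a mean of at least 1 FPKM or without a read (at most 4 examples a group), leading and defining genes of each marker list, and the 5 genes nearest to each profile. Vsig4, C4a, Cd59a, Cd46, Cd68, Mrc1, Mertk, Fcgr1, Cxcl9, Cxcl10, Mzb1, Derl3, Krt8, Krt18, Krt19 and the overlapping genes were named after their values were seen. Calculations ran under Python 3.11 with SciPy 1.17.1, NumPy 2.4.6 and pandas 2.3.3, drawing was by matplotlib 3.10.9, and the code was tested on simulated data. Alternatives covered the fold, scaling, pseudocount, filter, gene length and tumors left out.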

Additional observations from a re-analysis of the deposited data

How the results depend on the processing

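No paired analysis was possible because a single group was measured and no result came from a test. All 9 members were at least 2 times higher in tumors 1 and 2 than in tumor 3 under rescaling to a sum of 1000000, median-of-ratios factors, a pseudocount of 0.1 and summed repeated symbols. With a pseudocount of 1 they were 8 and 7, and at a ratio of 3 they were 9 and 8. Rescaling moved the median log2 ratio of tumor 1 to tumor 3 over all genes from 0.24 to 0.48, and median-of-ratios factors to 0.01. Members higher in tumor 1 than in tumor 2 were 3 in place of 5 at a ratio of 3, and 4 with a pseudocount of 1. At a ratio of 3, C3ar1 was no longer called higher in tumor 2 than in tumor 1 (0 members). The same held with a pseudocount of 0.1 (0) or 1 (0). The shares of all genes at a ratio of 3 were 6.0% for tumor 1 over 2, 7.02% for 1 over 3, 6.23% for 2 over 3, 5.10% for 2 over 1, 1.81% for 3 over 1 and 2.56% for 3 over 2. With a pseudocount of 1 they were 9.37% for tumor 1 over 2, 8.21% for 1 over 3, 7.49% for 2 over 3 and 2.59% for 3 over 2. Among genes above 0.2 FPKM in at least 1 tumor they were 22.8% for tumor 1 over 3, 18.7% for 2 over 3 and 8.36% for 3 over 2. Tumor 3 over 1 gave 2.90% after rescaling and 6.73% with median-of-ratios factors. The mean shares of the C1q chains C1qa, C1qb and C1qc became 34.5%, 33.9% and 31.6% by reads and 36.7%, 34.4% and 29.0% by coding transcript length, which was chosen after seeing the data. Leaving out each tumor gave 40.0% to 42.7%, 36.8% to 39.9% and 19.4% to 20.96%, and C1qa means of 12.8 to 49.3 FPKM. Of the 5 genes nearest to the C1q chains, 3 remained with a pseudocount of 1 and 1 with a mean of at least 1 FPKM, and of those nearest to C3, 2 and 1. Beyond the higher ratio, pseudocount and lengths themselves, the cause was not tested. Few reads in tumor 3 (11 for C4b, 22 for C5ar1) limit its ratios.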

Other observations

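Interferon-stimulated genes were mostly highest in tumor 2. Summed over the list they stood at 209.6, 817 and 278 FPKM for tumors 1, 2 and 3, led by Isg15 at 26.0, 270 and 81.7 FPKM. Of the 10 genes, 9 were at least 2 times higher in tumor 2 than in tumor 3, against 11.3% of all genes, and 3 were lowest in tumor 3, near the 37.4% of all genes. Cxcl9, a chemokine induced by interferon gamma, was highest in tumor 1, at 37.8, 1.77 and 0.447 FPKM, and Cxcl10 had 8.14, 22.5 and 0.663 FPKM.

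The summed level of neutrophil markers was lowest in tumor 2, at 42.7, 1.83 and 18.4 FPKM, led by S100a9 at 22.6, 1.01 and 10.4 FPKM. Of the 8 genes, 7 were at least 2 times higher in tumor 1 than in tumor 2, against 15.1% of all genes. Plasma cell markers summed to 829, 189 and 209 FPKM, of which Jchain made up most, at 814, 185 and 179 FPKM. The other 4 were highest in tumor 3, such as Mzb1 at 11.0, 2.62 and 25.8 FPKM. Among these, Derl3 was nearly level between tumors 1 and 3, at 2.27, 0.952 and 2.32 FPKM. Dendritic cell markers summed to 79.2, 39.0 and 57.4 FPKM, led by Ccr7, which T cells also express, at 71.2, 33.2 and 53.8 FPKM. Of these 7 markers, 4 were lowest in tumor 3 (37.4% of all genes), unlike Ccr7, which was lowest in tumor 2. Epithelial markers summed to 14.2, 2.75 and 0.913 FPKM, led by Cdh1 at 13.7, 0.934 and 0.410 FPKM. Epcam, Krt8 and Krt18 were highest in tumor 2, Epcam at 0.415, 1.14 and 0.307 FPKM, and Krt19 had no read. Krt8 rested on about 1, 4 and 1 reads and Krt18 on about 5, 15 and 5. The reads of Epcam, Krt8 and Krt18 did not come out whole, so these orders are uncertain.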
